A study of Mus musculus with 8 samples.

Results

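The 6 genes described here, AA545190, Lmo1, Pkd2l2, Tac2, Stard3nl and Gm45304, were chosen from the measured values of these libraries, as abundant transcripts whose mean level was several-fold higher in embryos without Dux. They are 6 of 13101 genes in the gene table and 6 of the 12434 genes tested, and all 6 were found by symbol and passed the filter on low values. The levels that chose them are given below as a description. The question asked of them is whether they rise and fall together from pool to pool within a genotype.

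Transcripts of 2-cell mouse embryos were sequenced in 8 libraries, each from a pool of 12 to 18 embryos, all on a C57BL/6 background and collected after timed matings. The Dux KO group held 4 pools of embryos labelled with the genotype Dux KO, and the WT group held 4 pools of wild-type embryos. The labels name neither the Dux allele nor the parents, and do not say whether pools came from separate matings, so p-values measure only the spread between these pools, which may be technical. Polyadenylated RNA was turned into cDNA with a low-input amplification kit and into libraries with Nextera XT, a method that keeps no strand. Each library held 12343369 to 14548526 gene reads. The Dux transcript itself was not analysed here, so the genotype labels were not checked on it. The 10 markers of the 2-cell embryo summed to 3605 to 4316 FPKM in Dux KO pools and 5134 to 6241 FPKM in WT pools, where FPKM is fragments per kilobase of transcript, scaled to library size. Most of that sum is Dppa3, at 3445 ± 279 FPKM in Dux KO and 5244 ± 467 FPKM in WT (SD, n = 4 each). The median log2 fold change of the 10 markers, Dux KO minus WT, was -0.06, against -0.02 over all genes tested. In a pool, fewer embryos carrying a transcript and less of it in each embryo cannot be told apart.

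Dux encodes a homeodomain transcription factor made briefly when the mouse embryonic genome is first switched on, and it is known to activate genes and MERVL retroelements of the 2-cell stage. At the same stage the embryo clears transcripts stored in the oocyte, so a pool's RNA is a mixture of an old maternal store and new embryonic transcripts. Lmo1 encodes a LIM-only cofactor that joins transcription factors through LDB proteins and is known from the nervous system and from T-cell leukaemia. Pkd2l2 encodes a protein of the polycystin cation channel family. Tac2 encodes the precursor of neurokinin B, a neuropeptide of hypothalamic neurons that acts on the receptor Tacr3. Stard3nl encodes a late endosomal membrane protein that binds VAP proteins of the endoplasmic reticulum. AA545190 and Gm45304 are annotated as long intergenic noncoding RNAs.

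Promoter windows, from 250 bases before to 50 bases after the annotated start, were found in RefSeq (GRCm38.p6) for 3 of the 6, and are shown because genes that move together can be compared at their starts. The AA545190 window is chr6:10974329-10974628 and the Lmo1 window is chr7:109175158-109175457, both on the minus strand, and the Tac2 window is chr10:127724228-127724527 on the plus strand. Searched on both strands were TATAAA (the TATA box), CCAAT (the CCAAT box), GGGCGG (the GC box), TAATTA (a homeodomain motif) and TGATTNAAT (close to the motif known for mouse Dux). Capitals mark the matches, and GGGCGG appears as its complement where it lies on the opposite strand.
AA545190: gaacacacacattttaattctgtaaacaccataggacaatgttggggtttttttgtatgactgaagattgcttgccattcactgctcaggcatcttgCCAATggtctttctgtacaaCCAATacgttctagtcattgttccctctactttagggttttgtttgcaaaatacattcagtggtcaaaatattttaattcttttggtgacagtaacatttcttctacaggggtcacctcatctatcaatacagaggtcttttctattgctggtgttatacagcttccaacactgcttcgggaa
Lmo1: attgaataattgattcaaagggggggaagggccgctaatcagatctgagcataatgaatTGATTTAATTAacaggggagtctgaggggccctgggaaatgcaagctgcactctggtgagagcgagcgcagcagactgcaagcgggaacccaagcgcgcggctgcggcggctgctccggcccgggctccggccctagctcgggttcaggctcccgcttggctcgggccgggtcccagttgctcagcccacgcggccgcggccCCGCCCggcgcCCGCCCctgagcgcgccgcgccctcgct
Tac2: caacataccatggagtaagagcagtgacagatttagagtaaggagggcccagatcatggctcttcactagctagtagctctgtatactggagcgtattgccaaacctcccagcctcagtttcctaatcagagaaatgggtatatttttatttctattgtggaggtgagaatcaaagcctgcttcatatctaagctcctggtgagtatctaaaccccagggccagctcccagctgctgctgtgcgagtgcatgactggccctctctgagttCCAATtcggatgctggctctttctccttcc
The window of AA545190 holds CCAAT at positions -153 and -133 from the start, and that of Tac2 holds it at position 21. The Lmo1 window holds GGGCGG at 2 places on the opposite strand, and TGATTNAAT overlapping TAATTA from position -191. A second Lmo1 start, chr7:109175100-109175399, holds the same overlapping pair. Of 32851 promoter windows of this length, the CCAAT box occurs in 37.4%, the GC box in 35.7%, the TATA box in 13.6%, the homeodomain motif in 5.29% and TGATTNAAT in 0.718%. No motif searched was found in all 3 windows. The windows hold 38.3% G and C at AA545190, 66.3% at Lmo1 and 48.3% at Tac2, against a median of 52.7% over all windows. A match is a description of the letters, not evidence of binding.

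The 3 most abundant of the 6 stood near the top of the transcriptome. AA545190 ranked 31 of 13101 genes by mean FPKM in Dux KO pools and 282 in WT pools. The corresponding ranks of Lmo1 were 55 in Dux KO and 478 in WT, and those of Pkd2l2 were 67 in Dux KO and 532 in WT. Stard3nl ranked 959 in Dux KO and 3679 in WT, Gm45304 ranked 1348 in Dux KO and 3949 in WT, and Tac2 ranked 1595 in Dux KO and 5559 in WT. The 6 therefore span a wide range of levels, and their reads made up 0.319% to 0.778% of all gene reads in Dux KO pools and 0.0717% to 0.161% in WT pools.

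AA545190, a noncoding RNA annotated on the minus strand of chromosome 6 (GRCm38, 10971560 to 10979638), had 783, 1368, 827 and 393 FPKM in Dux KO replicates 1 to 4, against 290.1, 187, 145 and 105 FPKM in WT replicates 1 to 4. Dux KO replicate 2 was the highest of the 8 pools and WT replicate 4 the lowest. The lowest Dux KO pool was only 1.35 times the highest WT pool, the narrowest gap of the 6. The means were 843 ± 401 FPKM in Dux KO and 182 ± 79.7 FPKM in WT (SD, n = 4 each), a ratio of 4.64 and a fitted log2 fold change of FPKM + 1 of 2.17 (SE 0.37).

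Lmo1, the LIM-only cofactor (chromosome 7, 109138572 to 109175207, minus strand), had 527, 829, 440.5 and 310.3 FPKM in Dux KO replicates 1 to 4, against 148, 151, 111 and 79.0 FPKM in WT replicates 1 to 4. The pools stood in the same order, 2, 1, 3 and 4 from high to low, in both genotypes. Means were 527 ± 220.2 FPKM in Dux KO and 122 ± 34.0 FPKM in WT (SD, n = 4 each), and the log2 fold change was 2.05 (SE 0.29). In the annotation the span of Lmo1 overlaps that of the antisense gene Gm44781, not analysed here. Of 1541 words of 31 bases in the annotated Lmo1 transcripts, 0 occur in another gene on either strand. Without strand, reads from the shared span outside these transcripts cannot be assigned to either gene.

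Pkd2l2, the polycystin family member (chromosome 18, 34408489 to 34444116, plus strand), had 585, 607, 382 and 313 FPKM in Dux KO replicates 1 to 4, against 154, 108, 108 and 72.1 FPKM in WT replicates 1 to 4. Dux KO replicates 1 and 2 were close together and both stood above replicates 3 and 4. The means were 472 ± 147 FPKM in Dux KO and 111 ± 33.7 FPKM in WT (SD, n = 4 each), with a log2 fold change of 2.08 (SE 0.26). Its 3' end overlaps Fam13b on the opposite strand, and 13.4% of the 31-base words in its annotated transcripts also occur in those of other genes, mostly Fam13b. Fam13b itself stood at 2.89 ± 0.521 FPKM in Dux KO and 4.83 ± 0.878 FPKM in WT (SD, n = 4 each), far under Pkd2l2 and in the opposite direction between genotypes.

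Tac2, the neurokinin B precursor (chromosome 10, 127724478 to 127731768, plus strand), was the least abundant of the 6. It had 29.2, 70.1, 27.0 and 13.3 FPKM in Dux KO replicates 1 to 4, against 8.92, 9.19, 4.10 and 4.30 FPKM in WT replicates 1 to 4. Dux KO replicate 2 stood apart, at 5.26 times the lowest Dux KO pool, and WT pools fell into a higher pair, replicates 1 and 2, and a lower pair, replicates 3 and 4. Behind these values were 256 to 1519 reads in Dux KO pools and 68 to 176 in WT pools, so its WT levels carry the largest counting error of the 6. Means were 34.9 ± 24.5 FPKM in Dux KO and 6.63 ± 2.81 FPKM in WT (SD, n = 4 each), and the log2 fold change was 2.08 (SE 0.41).

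Stard3nl, the endosomal protein (chromosome 13, 19357676 to 19395795, minus strand), had 54.3, 90.9, 52.3 and 28.9 FPKM in Dux KO replicates 1 to 4, against 16.9, 13.5, 13.3 and 9.09 FPKM in WT replicates 1 to 4. The pools kept the order seen for Lmo1 in Dux KO. Its log2 fold change was 1.94 (SE 0.30). Gm45304, the second noncoding RNA (chromosome 8, 31598979 to 31663828, minus strand), had 38.9, 54.3, 36.8 and 34.7 FPKM in Dux KO replicates 1 to 4, against 15.4, 10.8, 11.0 and 9.57 FPKM in WT replicates 1 to 4. It was the flattest of the 6 within genotypes and had the widest gap between them, the lowest Dux KO pool being 2.26 times the highest WT pool. Its log2 fold change was 1.73 (SE 0.19).

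**Figure D1:**
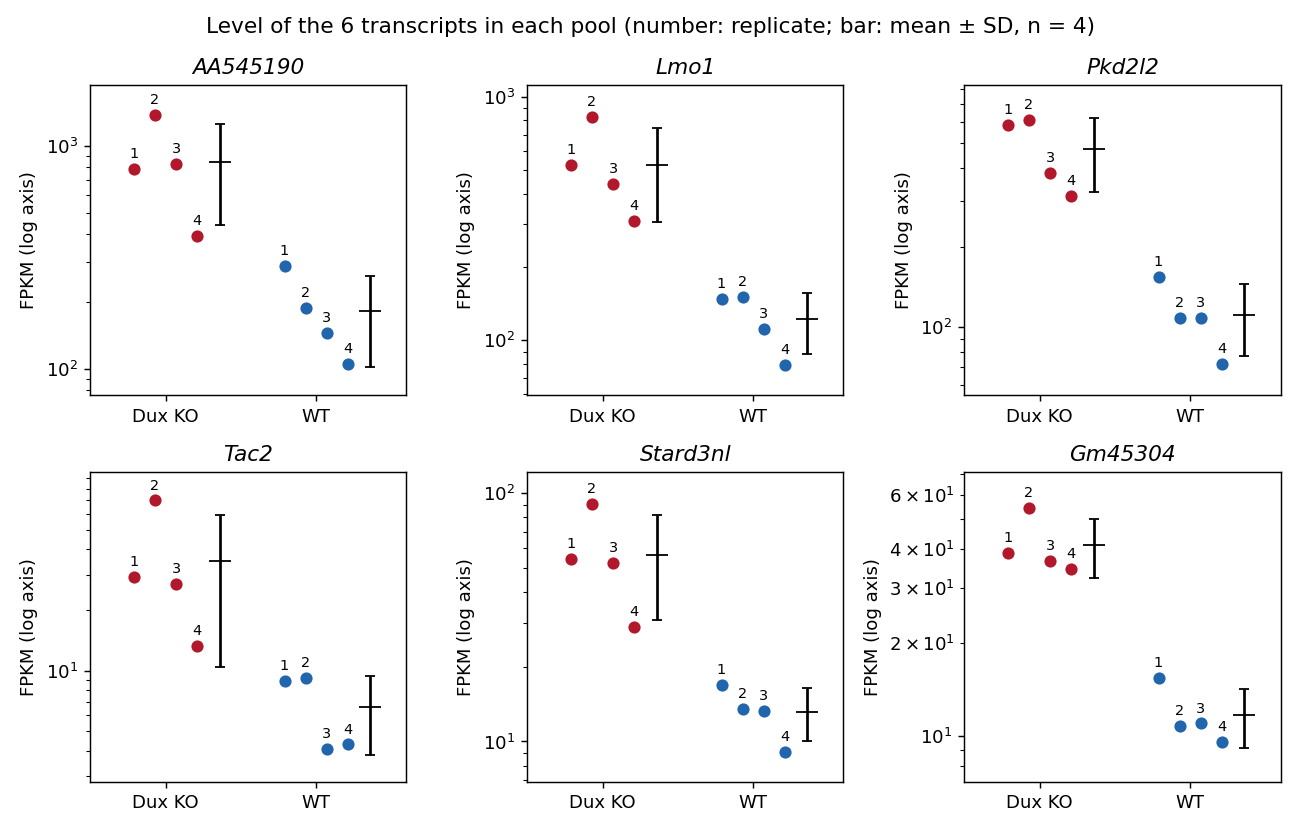
Level of each transcript in FPKM on a log axis, with Dux KO pools in red on the left and WT pools in blue on the right of each panel. Numbers are replicates and black bars are the mean ± SD of 4 pools; replicate 2 is the highest and replicate 4 the lowest Dux KO point in every panel.

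For all 6, every Dux KO pool lay above every WT pool, as 15.0% of the 12434 genes tested did. Since the difference between genotypes chose the 6, this count says nothing beyond the choice. Of the genes tested, 15.5% were called higher in Dux KO and 18.1% lower (limma, Benjamini-Hochberg adjusted p under 0.05), the shares against which the calls of other genes are read below. Another 7 genes were at least as high in Dux KO and at least as changed as the lowest of the 6. Their means were 659 ± 498 FPKM in Dux KO and 106 ± 40.6 FPKM in WT for Gm11381, the highest in Dux KO (SD, n = 4 each), and Cdo1, the cysteine dioxygenase, averaged 83.2 ± 53.5 FPKM in Dux KO and 22.8 ± 8.11 FPKM in WT. The others were Gm28438, Gm23083, Gm20362, Tdpx-ps1 and Gm26692. Just outside, with a ratio of group means of at least 2 but under that of the 6, the most abundant were the oocyte-secreted protein gene Oosp1, at 2298 FPKM in Dux KO and 1106 FPKM in WT, and Tcl1b1, at 1521 FPKM in Dux KO and 755 FPKM in WT.

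The 6 transcripts followed the same gradient among Dux KO pools. Replicate 2 was the highest and replicate 4 the lowest of the Dux KO pools in 6 of 6, a pair of extremes shown by 2038 of the 12428 other tested genes (16.4%). The full order 2, 1, 3 and 4 was held by 5 of the 6, against 8.67% of the other genes and 23.8% of those called higher. The exception was AA545190, with replicate 3 at 827 FPKM just above replicate 1 at 783 FPKM. Replicates 1 and 3 also lay close together in Tac2 (29.2 and 27.0 FPKM), Stard3nl (54.3 and 52.3 FPKM) and Gm45304 (38.9 and 36.8 FPKM). The order of these middle pools is therefore weaker than that of the extremes. Among 1927 other genes called higher, 39.6% had replicate 2 highest and replicate 4 lowest, and among 2249 called lower, 3.42% did. The gradient was therefore common among the genes higher in Dux KO and is not particular to the 6; the genes called higher were chosen on the same pools as the gradient.

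A gradient was also present in WT. WT replicate 4 was the lowest of its group in 5 of 6, against 25.6% of the other tested genes, 46.4% of those called higher and 11.6% of those called lower. Tac2 was the exception, with WT replicate 3 at 4.10 FPKM and replicate 4 at 4.30 FPKM. WT replicate 1 or 2 was the highest in all 6. AA545190, Pkd2l2 and Stard3nl shared the order 1, 2, 3 and 4, against 5.41% of the other genes and 12.5% of those called higher. Replicates 2 and 3 of Pkd2l2 (both 108 FPKM) and of Stard3nl (13.5 and 13.3 FPKM) hardly differed, though. Both extremes in Dux KO together with WT replicate 4 lowest occurred in 5 of the 6. The share was 7.51% of the other genes and 21.5% of those called higher.

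**Figure D2:**
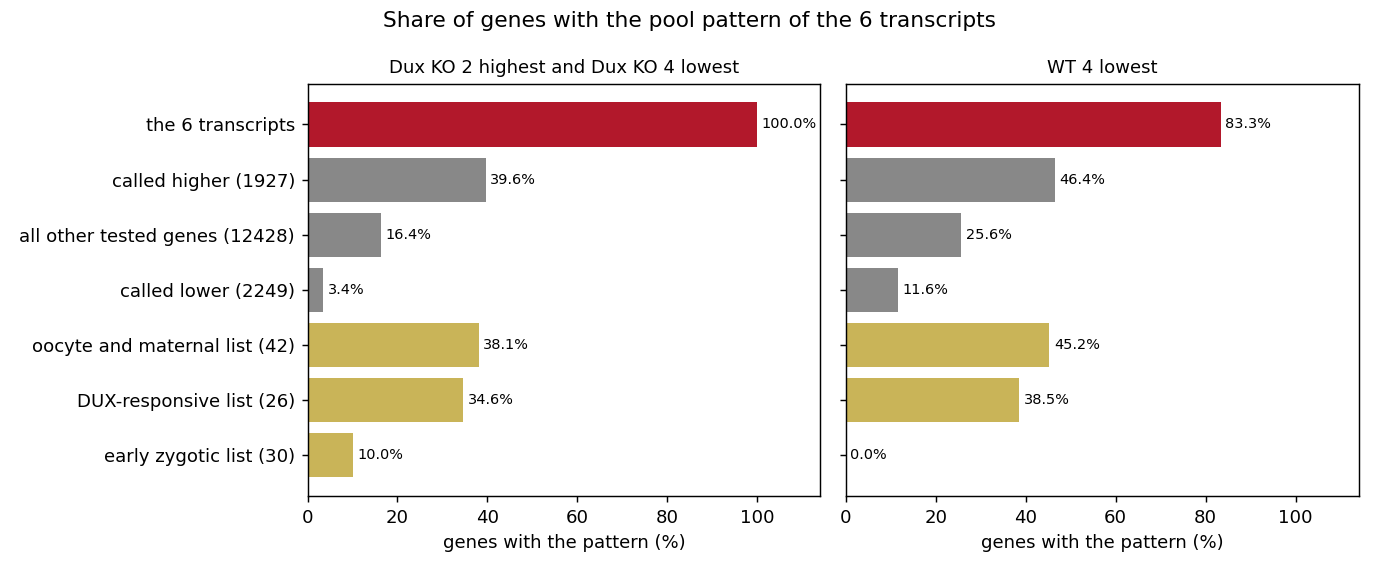
Percentage of genes in each set with Dux KO replicate 2 highest and replicate 4 lowest (left) or with WT replicate 4 lowest (right); the number of genes in a set is in brackets. The 6 transcripts show the Dux KO pattern in 6 of 6, against 39.6% of other genes called higher and 16.4% of all other tested genes.

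The size of the gradient differed widely among the 6. Between the highest and the lowest Dux KO pool, log2(FPKM + 1) spanned 2.31 for Tac2, 1.80 for AA545190, 1.62 for Stard3nl, 1.41 for Lmo1, 0.95 for Pkd2l2 and 0.63 for Gm45304, where the median tested gene spanned 0.55. The median among genes called higher was 0.61. A span as large as that of Tac2 was found in 0.491% of the other genes, and one as large as that of AA545190 in 1.31%. Those genes include low ones, whose spans the added 1 FPKM narrows, so the shares may overstate how unusual the spans are. Gm45304 was ordinary by this measure, since 39.9% of the other genes spanned as much. Among WT pools the spans were 1.46 for AA545190, 1.09 for Pkd2l2, 1.00 for Tac2, 0.93 for Lmo1, 0.83 for Stard3nl and 0.63 for Gm45304, against a median of 0.52. Leaving out Dux KO replicate 2 gave Dux KO spans of 1.08 for Tac2, 1.07 for AA545190, 0.90 for Pkd2l2, 0.89 for Stard3nl, 0.76 for Lmo1 and 0.16 for Gm45304. Leaving out Dux KO replicate 4 gave 1.34 for Tac2, 0.91 for Lmo1, 0.80 for AA545190, 0.79 for Stard3nl, 0.67 for Pkd2l2 and 0.55 for Gm45304. The span of Pkd2l2 hardly depended on replicate 2, and that of Gm45304 rested mostly on it.

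Deviations of log2(FPKM + 1) from the group's own mean showed how alike the 6 were once the difference between genotypes was taken out. Averaged over the 6, the deviations were 0.08, 0.74, -0.10 and -0.72 in Dux KO replicates 1 to 4 and 0.47, 0.16, -0.14 and -0.50 in WT replicates 1 to 4. Dux KO replicate 2 therefore stood above its group's mean by about as much as replicate 4 stood under it. Lmo1 and Stard3nl lay nearest to the other members, each with a root mean square difference of 0.12 over the 8 pools. The corresponding differences were 0.21 for AA545190, 0.23 for Pkd2l2, 0.30 for Gm45304 and 0.34 for Tac2, against 0.45 for a gene equal in all pools of a group. Among Dux KO pools Tac2 swung most and Gm45304 least; among WT pools AA545190 swung most and Gm45304 least.

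Ratios of 2 members within a library do not depend on scaling between libraries. The ratio of Lmo1 to Stard3nl, the pair nearest to the rest, was 9.71, 9.11, 8.42 and 10.7 in Dux KO replicates 1 to 4 and 8.74, 11.1, 8.39 and 8.69 in WT replicates 1 to 4, while Lmo1 itself ranged over 310.3 to 829 FPKM in Dux KO and 79.0 to 151 FPKM in WT. Other ratios were less steady. That of AA545190 to Lmo1 was 1.27 to 1.88 in Dux KO pools and 1.24 to 1.96 in WT pools, and that of Lmo1 to Pkd2l2 was 0.900 to 1.36 in Dux KO pools and 0.957 to 1.39 in WT pools. The ratio of Tac2 to Lmo1 was 0.0430 to 0.0846 in Dux KO pools and 0.0368 to 0.0609 in WT pools, and that of Gm45304 to Lmo1 was 0.0655 to 0.112 in Dux KO pools and 0.0716 to 0.121 in WT pools. In both genotypes the last of these was lowest in replicate 2 and highest in replicate 4, the pools where Lmo1 was highest and lowest.

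Reads summed over the 6 gave the gradient as 1 value per pool. They made up 0.625%, 0.778%, 0.469% and 0.319% of gene reads in Dux KO replicates 1 to 4, and 0.161%, 0.123%, 0.0988% and 0.0717% in WT replicates 1 to 4. The first principal component of the tested genes outside the 6 held 57.9% of the variance. On it the pools lay at 31.28, 57.28, 17.69 and 19.22 in Dux KO and at -22.71, -24.52, -33.72 and -44.52 in WT. Dux KO replicate 2 and WT replicate 4 were thus the 2 ends of the component as well as of the summed reads. Dux KO replicate 4 was not at the low end of its group on the component, where it stood beside replicate 3, but it was for the 6 transcripts. The component left out the 6 but came from the same pools.

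Among 4001 candidates, which are genes with names of their own and a mean of 10 FPKM or more, the 8 whose deviations came nearest to the members' mean were Tmem232, D16Ertd519e, Chmp2b, A730082K24Rik, Hsf2bp, Scml2, 6430710C18Rik and Immp1l. Their root mean square differences over the 8 pools were 0.09 to 0.12, where the median candidate had 0.53. RefSeq lists D16Ertd519e, A730082K24Rik and 6430710C18Rik as long noncoding RNAs. Chmp2b encodes a subunit of the ESCRT-III membrane remodelling complex, Hsf2bp a partner of heat shock factor HSF2, Scml2 a Polycomb-related protein and Immp1l a subunit of the inner mitochondrial membrane peptidase.

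The difference between genotypes in these 8 is not independent of their choice, since the gradient and the calls come from the same pools and Chmp2b and Hsf2bp reached a mean of 10 FPKM only through Dux KO. By limma with Benjamini-Hochberg adjustment over all genes tested, 7 of the 8 were called higher in Dux KO, against 15.5% of all genes tested and 764 of the 2038 genes with the same highest and lowest Dux KO pools. Immp1l averaged 280.5 ± 138 FPKM in Dux KO and 92.8 ± 20.9 FPKM in WT (SD, n = 4 each; log2 fold change 1.48, adjusted p = 0.00681). D16Ertd519e averaged 172 ± 71.4 FPKM in Dux KO and 56.9 ± 17.1 FPKM in WT (log2 fold change 1.54, adjusted p = 0.00458). Scml2 had the gradient without a called difference, at 20.7 ± 9.37 FPKM in Dux KO and 14.8 ± 3.48 FPKM in WT (log2 fold change 0.39, adjusted p = 0.269). The call for Tmem232 (log2 fold change 0.79, adjusted p = 0.0337) was lost when any 1 of 5 pools was left out. Its adjusted p was then 0.0775, 0.0822 and 0.0516 for Dux KO replicates 1, 2 and 3, and 0.0745 and 0.0943 for WT replicates 3 and 4.

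**Figure D3:**
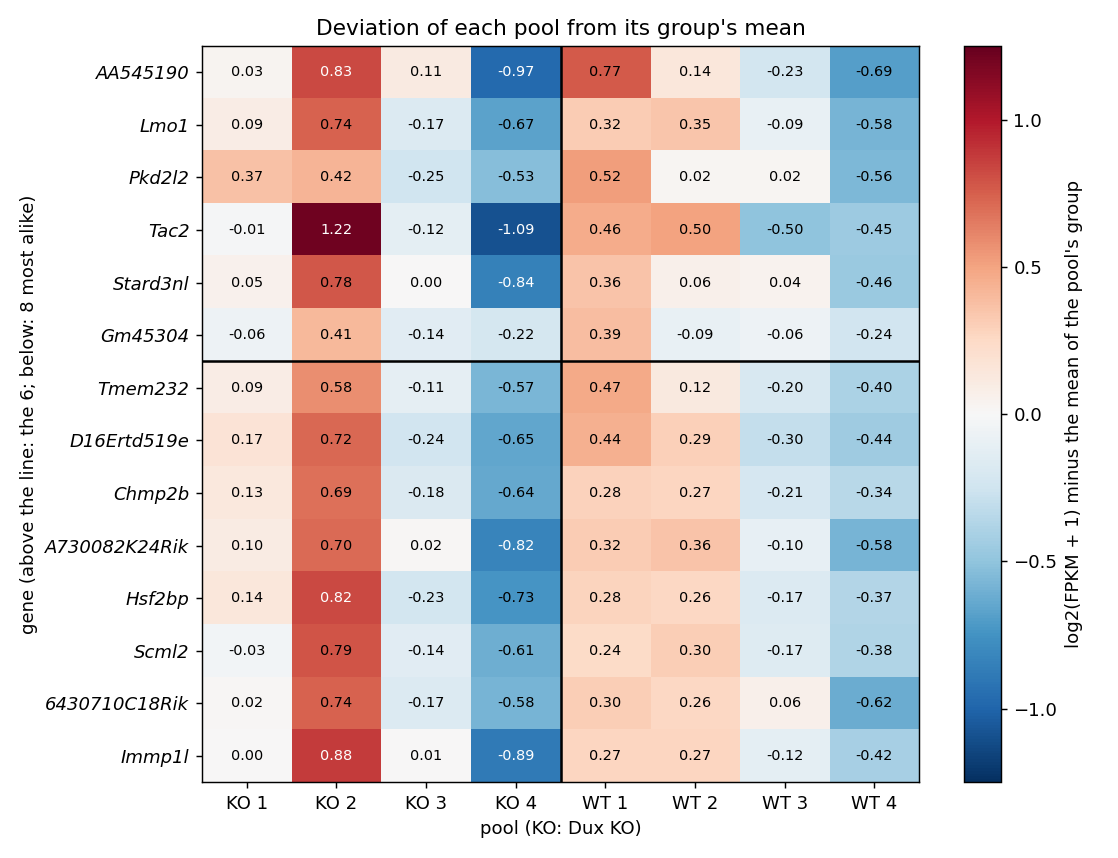
Deviation of log2(FPKM + 1) in each pool from the mean of its group, Dux KO pools on the left and WT pools on the right, for the 6 transcripts (upper rows) and the 8 genes most like them (lower rows). Red cells are above and blue cells under the group's mean; the columns of Dux KO replicate 2 are red and those of Dux KO replicate 4 blue throughout.

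The 7 genes as high and as changed as the 6 did not all share the gradient. Dux KO replicate 2 was highest and replicate 4 lowest in 3 of the 7. Gm11381 had 444, 1391, 521 and 280.4 FPKM in Dux KO replicates 1 to 4, against 138, 143, 80.2 and 62.6 FPKM in WT replicates 1 to 4. Cdo1 had 140.4, 117, 43.2 and 32.4 FPKM in Dux KO replicates 1 to 4, against 31.8, 27.2, 17.6 and 14.5 FPKM in WT replicates 1 to 4, so that its highest Dux KO pool was replicate 1. Gm26692 ran another way, with 47.3, 29.9, 33.9 and 41.4 FPKM in Dux KO replicates 1 to 4, against 9.93, 3.87, 12.1 and 12.1 FPKM in WT replicates 1 to 4. In Gm28438, a gene model that resembles mt-Nd3, Dux KO replicate 2 had 1.11 FPKM while the other Dux KO pools had 199.9 to 872 FPKM, and WT pools had 0.236 to 1.54 FPKM.

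The table holds 11 genes within 100 kb of a member, counting at most 4 for each, and none near AA545190 or Stard3nl. By limma with Benjamini-Hochberg adjustment, 2 of the 11 were higher in Dux KO and 2 lower, near the shares of all genes tested (15.5% higher and 18.1% lower). Gm45024, a noncoding RNA 33094 bases from Lmo1, averaged 9.43 ± 4.64 FPKM in Dux KO and 2.93 ± 2.03 FPKM in WT (SD, n = 4 each; log2 fold change 1.42, adjusted p = 0.0148). It had 6.74, 15.1, 11.2 and 4.72 FPKM in Dux KO replicates 1 to 4, against 2.48, 5.89, 2.00 and 1.34 FPKM in WT replicates 1 to 4. Its highest and lowest pools in both genotypes were those of Lmo1. On the other side of Lmo1, Ric3, a chaperone of acetylcholine receptors, averaged 2.28 ± 0.331 FPKM in Dux KO and 2.83 ± 0.564 FPKM in WT (adjusted p = 0.308). The highest Dux KO pool of Ric3 was replicate 3.

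Beside Pkd2l2, Reep5, which shapes the endoplasmic reticulum, averaged 9.13 ± 2.44 FPKM in Dux KO and 4.87 ± 0.860 FPKM in WT (SD, n = 4 each; log2 fold change 0.77, limma adjusted p = 0.0136). Its highest Dux KO pool was replicate 4, the lowest for Pkd2l2. The overlapping Fam13b was lower in Dux KO (log2 fold change -0.58, adjusted p = 0.0247), as was Srp19, a signal recognition particle protein (log2 fold change -0.56, adjusted p = 0.0275). Both calls were lost when Dux KO replicate 1 or 2 or WT replicate 3 or 4 was left out, with adjusted p-values of 0.0639, 0.0613, 0.0598 and 0.0544 for Fam13b. Those for Srp19 were 0.0703, 0.0528, 0.0603 and 0.0756 in the same order of pools. Of the 4 neighbours of Tac2, none was called. Nemp1, a nuclear envelope protein, came nearest, with 16.8 ± 5.01 FPKM in Dux KO and 27.4 ± 6.54 FPKM in WT (log2 fold change -0.69, adjusted p = 0.0534). It was called lower in 8 of 20 alternatives, among them those that left out Dux KO replicate 4 (adjusted p = 0.0446) or WT replicate 2 (adjusted p = 0.0259). Gm5117, the neighbour of Gm45304, had 16.4, 23.4, 14.0 and 19.2 FPKM in Dux KO replicates 1 to 4, against 21.8, 23.2, 21.5 and 15.6 FPKM in WT replicates 1 to 4 (adjusted p = 0.489).

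The relatives of the 6 did not all move with them. Among their lists, only that of Lmo1 had a median log2 fold change above that of all genes tested. Over all genes tested, 15.5% were called higher and 18.1% lower. Of the polycystin family, 4 genes besides Pkd2l2 were tested, and 0 were called higher and 2 lower by limma with Benjamini-Hochberg adjustment, with a median log2 fold change of -0.33 against -0.02 over all genes tested. Pkd1l2 had 1.71 ± 0.572 FPKM in Dux KO and 3.88 ± 0.946 FPKM in WT (SD, n = 4 each; log2 fold change -0.85, adjusted p = 0.0131). Pkd1, the gene of polycystin-1, had 0.382 ± 0.0533 FPKM in Dux KO and 0.877 ± 0.190 FPKM in WT (log2 fold change -0.44, adjusted p = 0.0162). In the tachykinin list the neurokinin B receptor gene Tacr3 was the 1 gene tested, and it was lower in Dux KO, with 0.883 ± 0.409 FPKM in Dux KO and 2.64 ± 0.838 FPKM in WT (log2 fold change -0.94, adjusted p = 0.00974). Tac2 and its receptor gene thus differed in opposite directions between the genotypes. Without both Dux KO replicates 1 and 2 the calls of these relatives were lost. Their adjusted p was then 0.109 for Pkd1l2, 0.142 for Pkd1 and 0.0696 for Tacr3.

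Of the LIM-only factors and their partners, 7 genes besides Lmo1 were tested, and 4 were called higher and 0 lower. Their median log2 fold change was 0.58, against -0.02 over all genes tested, of which 15.5% were called higher. Gata2, a zinc finger factor that works with LMO proteins in blood, had 1.46 ± 0.380 FPKM in Dux KO and 0.262 ± 0.0508 FPKM in WT (SD, n = 4 each; log2 fold change 0.95, limma adjusted p = 0.00207). Ldb2, an adaptor that binds LIM domains, had 4.69 ± 2.27 FPKM in Dux KO and 1.64 ± 0.136 FPKM in WT (log2 fold change 1.03, adjusted p = 0.0118). Its Dux KO pools stood in the order of Lmo1, at 5.60, 7.49, 2.95 and 2.73 FPKM in replicates 1 to 4. Ssbp2, a partner of LDB proteins, had 13.6 ± 5.08 FPKM in Dux KO and 7.26 ± 0.889 FPKM in WT (log2 fold change 0.77, adjusted p = 0.0216, and 0.0612 without WT replicate 4). Ldb1 had 2.77 ± 0.856 FPKM in Dux KO and 1.50 ± 0.422 FPKM in WT (log2 fold change 0.58, adjusted p = 0.0362), and its call was lost when Dux KO replicate 1 or 4 was left out (adjusted p = 0.0568 and 0.0746), or WT replicate 1, 2 or 4 (adjusted p = 0.0576, 0.0740 and 0.0994). The count of 4 fell to 2 without WT replicate 4. Without both Dux KO replicates 1 and 2 it fell to 1, Gata2, and the adjusted p of Ldb2 was 0.0921.

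Of the family and contact partners of Stard3nl, 10 genes were tested and 1 was called higher and 0 lower, with a median log2 fold change of -0.04. Mospd2, an endoplasmic reticulum protein that tethers endosomes, had 6.83, 9.04, 5.89 and 7.19 FPKM in Dux KO replicates 1 to 4, against 2.46, 3.70, 1.85 and 2.06 FPKM in WT replicates 1 to 4 (log2 fold change 1.24, limma adjusted p = 0.00278). The most abundant of the list, Vapa, the VAP protein to which the Stard3nl product binds, had 46.8 ± 4.77 FPKM in Dux KO and 50.1 ± 4.06 FPKM in WT. Its levels overlapped between the genotypes, unlike those of Stard3nl.

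Broader gene groups of this stage were set against the same pool pattern, with no test of the difference between them. Of 42 oocyte and maternal transcripts, 16 had Dux KO replicate 2 highest and replicate 4 lowest, and 19 had WT replicate 4 lowest. Over all other tested genes these shares were 16.4% and 25.6%, and over those called higher 39.6% and 46.4%. By limma with Benjamini-Hochberg adjustment, 12 of the 42 were higher in Dux KO and 5 lower, with a median log2 fold change of 0.33. Tbpl2, an oocyte form of the TATA-binding protein, had 8.29, 16.0, 8.07 and 3.96 FPKM in Dux KO replicates 1 to 4, against 2.66, 1.93, 3.25 and 1.43 FPKM in WT replicates 1 to 4 (log2 fold change 1.50, adjusted p = 0.00742). Wee2, an oocyte kinase, had 347, 429.8, 237 and 170.4 FPKM in Dux KO replicates 1 to 4, against 123, 131, 99.4 and 65.0 FPKM in WT replicates 1 to 4 (log2 fold change 1.45, adjusted p = 0.00607). Both had the pool order of Lmo1 in Dux KO, and Wee2 had it in WT too.

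Btg4, an adaptor of the deadenylase that removes maternal mRNA, had 1044, 2183, 1077 and 494 FPKM in Dux KO replicates 1 to 4, against 545, 506, 359.6 and 300.0 FPKM in WT replicates 1 to 4. Its groups overlapped, and its order of pools was that of AA545190 in both genotypes (log2 fold change 1.34, limma adjusted p = 0.0195, and 0.0578 without WT replicate 4). Of the 5 maternal transcripts lower in Dux KO, 0 had WT replicate 4 lowest. Zp3, a zona pellucida protein, had 110.4, 63.5, 97.4 and 94.6 FPKM in Dux KO replicates 1 to 4, against 199.7, 205, 170.0 and 217 FPKM in WT replicates 1 to 4 (log2 fold change -1.13, adjusted p = 0.00297). Zar1l averaged 23.5 ± 8.87 FPKM in Dux KO and 64.0 ± 20.0 FPKM in WT (SD, n = 4 each; log2 fold change -1.42, adjusted p = 0.00626), and Padi6, a protein of the oocyte lattices, 27.0 ± 4.68 FPKM in Dux KO and 45.8 ± 5.15 FPKM in WT (log2 fold change -0.75, adjusted p = 0.00820). Leaving out Dux KO replicate 1 or 4 turned the count of 12 higher into 7 or 17, and leaving out WT replicate 4 turned it into 8.

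Of 26 tested genes of the 2-cell stage that respond to DUX, 1 was called higher and 10 lower in Dux KO, with a median log2 fold change of -0.31, and 9 had Dux KO replicate 2 highest and replicate 4 lowest, against 16.4% of the other tested genes. Gm21319, of the largest fall, had 1.11, 2.90, 2.10 and 0.539 FPKM in Dux KO replicates 1 to 4, against 8.34, 7.65, 2.81 and 4.93 FPKM in WT replicates 1 to 4 (log2 fold change -1.38, limma adjusted p = 0.0112). Its highest and lowest Dux KO pools were those of the 6, although its difference between genotypes ran the other way. Zfp750, the gene called higher, averaged 1.67 ± 0.277 FPKM in Dux KO and 0.792 ± 0.182 FPKM in WT (SD, n = 4 each; log2 fold change 0.57, adjusted p = 0.0112). Gm5039 (log2 fold change -1.28, adjusted p = 0.0268) and Gm8300 (log2 fold change -1.15, adjusted p = 0.0384) are similar gene models, so that reads may have been split between them by the counting. Leaving out single pools raised their adjusted p to as much as 0.0755 for Gm5039 and 0.105 for Gm8300, both without Dux KO replicate 1. The count of 10 lower was 6 when Dux KO replicate 1 was left out, 5 when WT replicate 1 was and 4 when WT replicate 2 was.

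Early zygotic housekeeping genes had the pool pattern of the 6 in few cases. Of 30 tested, 0 were called higher and 15 lower in Dux KO, with a median log2 fold change of -0.53, 3 had Dux KO replicate 2 highest and replicate 4 lowest, and 0 had WT replicate 4 lowest, where 16.4% and 25.6% of the other tested genes did. Psmb5, a proteasome subunit, had 43.1, 21.5, 44.7 and 46.4 FPKM in Dux KO replicates 1 to 4, against 76.9, 76.1, 87.7 and 110.2 FPKM in WT replicates 1 to 4 (log2 fold change -1.20, limma adjusted p = 0.00575). Dux KO replicate 2 was its lowest pool and WT replicate 4 its highest, the reverse of AA545190 and Lmo1. Pdxk, pyridoxal kinase, averaged 105 ± 33.6 FPKM in Dux KO and 200.2 ± 53.0 FPKM in WT (SD, n = 4 each; log2 fold change -0.96, adjusted p = 0.0220, and 0.0634 without WT replicate 4 or 0.0558 without WT replicate 3). Sf3b4, a splicing factor subunit, averaged 4.35 ± 1.54 FPKM in Dux KO and 8.87 ± 1.51 FPKM in WT (log2 fold change -0.92, adjusted p = 0.0108). The count of 15 lower was 9 without WT replicate 3 and 9 without WT replicate 4.

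**Figure D4:**
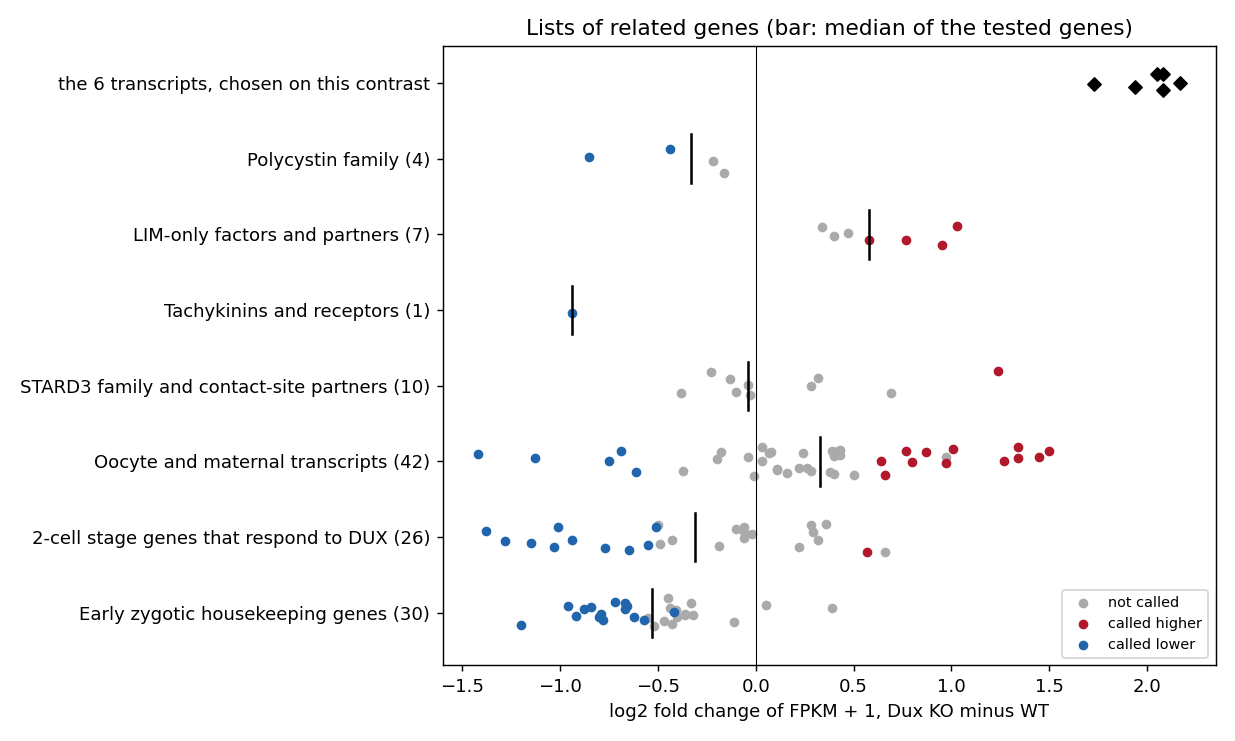
Log2 fold change of FPKM + 1, Dux KO minus WT, for the 6 transcripts (top, chosen on this contrast) and for every tested gene of 7 lists, with the number tested in brackets and a bar at each median. Red and blue points passed the limma test at an adjusted p under 0.05; the medians of the lists lie between -0.94 and 0.58, under all 6 transcripts.

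Markers of other cells and the MERVL retroelements shared the pool pattern of the 6 in part at most. Cumulus and granulosa cell markers, 6 of 12 of which are in the table, summed to 9.12, 85.3, 8.71 and 35.2 FPKM in Dux KO replicates 1 to 4, against 16.3, 13.5, 1.69 and 8.09 FPKM in WT replicates 1 to 4. They were highest in Dux KO replicate 2, as the 6 were, but second highest in replicate 4, where the 6 were lowest. By limma 1 of these 6 markers was called higher, Cyp19a1, against 15.5% of all genes tested. Their median log2 fold change was 0.77, against -0.02 over all genes tested, and only Tnfaip6 ran the other way (-0.08). Most of the sum in Dux KO replicate 2 is Hsd3b1, at 50.5 FPKM. In Dux KO replicate 4 most of it is Inha, at 16.0 FPKM, and Hsd3b1, at 11.6 FPKM. Fshr, Lhcgr, Foxl2, Has2, Ptx3 and Amh of this list were not analysed here. Neuronal markers are relevant since Tac2 and Lmo1 are also known from neurons, and 2 of 8 are in the table. They summed to 16.4, 15.9, 10.8 and 7.91 FPKM in Dux KO replicates 1 to 4, against 11.6, 9.30, 11.7 and 11.6 FPKM in WT replicates 1 to 4. In Dux KO this sum was similar in replicates 1 and 2 and lowest in replicate 4, as Pkd2l2 was. In WT it was lowest in replicate 2, unlike the 6. Most of that sum is Tubb3, at 11.4 ± 3.89 FPKM in Dux KO and 10.5 ± 1.23 FPKM in WT (SD, n = 4 each), while Syt1, a synaptic vesicle protein, had 1.26, 1.95, 1.12 and 1.14 FPKM in Dux KO replicates 1 to 4, against 0.654, 0.587, 0.339 and 0.537 FPKM in WT replicates 1 to 4 and was called higher (log2 fold change 0.62, limma adjusted p = 0.00959).

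Oviduct markers, with 3 of 8 in the table, summed to 93.9 to 129 FPKM in Dux KO and 131 to 149 FPKM in WT. Most of that sum is Epcam, which limma called lower (log2 fold change -0.56, adjusted p = 0.0297), while it called Cdh1 higher (log2 fold change 0.69, adjusted p = 0.0369). Both calls rest on single pools: the adjusted p of Epcam was 0.0627, 0.0592 and 0.0784 when WT replicate 1, 2 or 4 was left out. That of Cdh1 was 0.0636, 0.0937 and 0.0790 when Dux KO replicate 1, 2 or 4 was left out, and 0.0591 and 0.103 when WT replicate 2 or 4 was. Ovgp1, the oviductal glycoprotein, had 11.7, 22.0, 3.07 and 5.12 FPKM in Dux KO replicates 1 to 4, against 1.74, 2.00, 11.5 and 4.63 FPKM in WT replicates 1 to 4, and was not called (adjusted p = 0.213). The median log2 fold change of these 3 was 0.69. The 1 blood marker of 8 in the table was at 1.77 to 4.88 FPKM in Dux KO and 1.33 to 5.61 FPKM in WT, and the 1 male germ line marker of 10 was at 22.8 to 44.3 FPKM in Dux KO and 46.1 to 78.4 FPKM in WT. The part of such cells in the levels of the 6 was not tested. MERVL-int, the internal part of the retroelement that DUX activates, stood at 4548, 5395, 6050.2 and 5785 library-scaled fragments in Dux KO replicates 1 to 4, against 14081, 16381, 11359.6 and 13236 in WT replicates 1 to 4. Its lowest Dux KO pool was replicate 1 and its lowest WT pool replicate 3. Neither was the lowest pool for Lmo1, Pkd2l2, Stard3nl, AA545190 or Gm45304, while Tac2 too was lowest in WT replicate 3.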

How the data were processed

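Groups and replicate numbers came from the sample titles, and the number of per-sample columns left unmapped was 0. The authors deposited gene values as FPKM, a mean signal per gene, and their own log2 fold change and adjusted p-value. These fold changes and p-values were used here only among the alternatives named below. Repeat values are a deposited signal, fragments scaled to library size. Per the submitters' processing notes, Trimmomatic 0.32, STAR 2.6.1a, SAMtools 1.7 and the build GRCm38 were used. The counter, annotation and strand setting are not given in the sources read, so how reads of similar gene copies were assigned is unknown. The lowest mean count in the table is 25.0.

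Values of each library were whole multiples of 1 step, from which reads were recovered (100.0% whole within 0.05). How the authors scaled FPKM between libraries is not stated. Genes with a mean of 0.5 FPKM or more were fitted with limma 3.58.1 in R 4.3.3, with variance trend and robust moderation, on log2(FPKM + 1), with all 8 pools and no covariate. A two-sided Benjamini-Hochberg adjusted p under 0.05 over all 12434 genes tested was a call. The script was tested on simulated data. The 6 members, the lists, the promoter motifs and the rules were chosen with earlier results of these data known. The 6 and the called genes of the small lists were named, with the 3 largest called changes in each direction of each broad list, at most 4 neighbours per member, and the 8 genes of smallest root mean square difference. Gene models named Gm and a number were left out of that likeness. Coordinates are from GENCODE M21 on the same build. Alternatives were another pseudocount, filters, scalings, limma without trend, a replicate block, edgeR 4.0.16 and DESeq2 1.42.0 on recovered reads, and pools left out. A further alternative took the authors' own fold changes and adjusted p-values as deposited.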

Additional observations from a re-analysis of the deposited data

Results flagged for a closer look

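In 94 groups of 4 pools, the gap of the highest or lowest pool to its nearest neighbour was set against the whole range of the group. Chance gives such a gap in about 1 in 20 groups, and 4 were found, none of them in the 6 transcripts. Stat6, a neighbour of Tac2, stood at 5.06 FPKM in Dux KO replicate 3, the other 3 Dux KO pools lying at 3.05 to 3.32 FPKM (gap 0.863 of the range). The summed level of the polycystin family was 5.21 FPKM in WT replicate 3 and 6.76 to 7.04 FPKM in the other WT pools (gap 0.847 of the range). The sum of the 2-cell stage genes that respond to DUX was 588 FPKM in WT replicate 4 and 778 to 785 FPKM in the other WT pools (gap 0.964 of the range), the pool in which 5 of the 6 transcripts were also lowest. Neuronal markers summed to 9.30 FPKM in WT replicate 2 and 11.6 to 11.7 FPKM in the other WT pools (gap 0.958 of the range).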

How the results depend on the processing

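The fitted log2 fold changes of the 6 stayed positive in all 20 alternatives, from 1.47 to 2.68 for Tac2 and from 1.55 to 1.91 for Gm45304. Dux KO replicate 4 was lowest in 6 of 6 under every scaling, and Dux KO replicate 2 highest in 6 of 6 except under quantile normalization, where it was in 5. The 2038 other genes with both extremes became 1066 (16.5% of fewer genes tested) at a mean of at least 5 FPKM. That filter also left 1032 genes called higher and 11 list genes called higher in place of 18. Quantile normalization left 21 of the 33 list genes called lower. Leaving out 1 pool gave 1179 to 1912 genes called higher and 1348 to 2133 called lower, the lowest counts without WT replicate 4. Without both Dux KO replicates 1 and 2, 353 were called higher and 447 lower, with 3 and 7 list genes; without replicates 3 and 4, 1832 and 2102 were. The cause was not tested. With replicate numbers as a block, 2141 genes were called higher and 2591 lower. Same-numbered pools correlated at -0.12, 0.33, -0.06 and 0.30. Dux KO replicates 2 and 4 correlated best with the WT pool of their own number, and Dux KO replicates 1 and 3 did not. The numbers were not taken to pair the pools. With 4 pools a group the orders rest on single pools, and depth limits Tac2 most, at 68 reads in WT replicate 3.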

Other observations

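Most of the 6 transcripts share little sequence with other genes. Of the 31-base words in the annotated transcripts, 0 of those of Lmo1, Tac2 and Gm45304 occur in another gene, as do 0.342% of those of AA545190 and 0.0520% of those of Stard3nl. For Pkd2l2 the share was 13.4%. The start of AA545190 in RefSeq, whose window on chromosome 6 runs from 10974329 to 10974628, lies inside the gene as GENCODE draws it, from 10971560 to 10979638 on the minus strand, so the annotations place its first base differently.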
